A study of Mus musculus with 9 samples.

Results

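The 10 genes described here carry sterols out of cells, move cholesterol through high-density lipoprotein (HDL), or switch these steps on. They are Nr1h3 and Nr1h2, which encode the liver X receptors LXRα and LXRβ, the transporter genes Abca1, Abcg1, Abcg5 and Abcg8, the HDL receptor gene Scarb1, and Lcat, Pltp and Lipc, whose products remodel HDL in plasma. They were chosen by symbol, as the rows of a liver RNA-seq table whose Ensembl identifiers map to these symbols, and all 10 were found among the 54007 genes of the table. The study used C57BL/6 mice that were 6 weeks old at the start, with 15 mice assigned at random to each of 3 groups, and measured liver RNA at postnatal day 98. One group was the control, one received a high-fat diet (HFD), and one received a high-fat diet with gavage of the gut bacterium Papillibacter cinnamivorans (HFD+Pc). Each group had 3 libraries: control replicates 1, 2 and 4, HFD replicates 1, 2 and 3, and HFD+Pc replicates 1, 3 and 4. Nothing in the labels tells a library of 1 mouse from one of pooled mice, so the p-values speak only of variation among the libraries sequenced. No group received the bacterium without the diet.

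LXRα and LXRβ are nuclear receptors that bind oxysterols, pair with a retinoid X receptor (RXR) and switch on genes that lower the sterol content of a cell. In the liver, ABCG5 and ABCG8 join into a single transporter that secretes cholesterol and plant sterols into bile, while ABCA1 loads lipid onto apolipoprotein A-I to start an HDL particle. LCAT esterifies the cholesterol of that particle, PLTP and hepatic lipase (LIPC) remodel it, and SR-BI, the product of Scarb1, returns its cholesteryl esters to the hepatocyte for bile.

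Levels are FPKM, fragments counted per exon length and library size, and whole reads could be recovered from them, giving 16278929 to 18640393 reads per library. All 12 hepatocyte markers reached 1 FPKM, as liver tissue should show, and their summed level ranged from 55772 to 57547 FPKM in control, 41502 to 43465 in HFD and 47611 to 60854 in HFD+Pc libraries. Alb alone made up most of that sum, with group means of 38648, 26448 and 36337 FPKM. In limma fits on log2(FPKM + 1), none of the 12 passed an adjusted p of 0.05 in HFD against control, and 2 were higher and 2 lower in HFD+Pc against control. Their median difference from control was -0.29 in HFD and -0.04 in HFD+Pc. Beside these counts and those below, 4.61% of all tested genes were higher and 5.35% lower in HFD against control. In HFD+Pc against control the shares were 11.1% and 11.9%. Among markers of other liver cells, 5 of 13 endothelial markers were lower in HFD than in control, and 3 were lower in HFD+Pc than in control. The summed level of the 13 was 148 to 162 FPKM in control, 106 to 133 in HFD and 120.2 to 127 in HFD+Pc libraries. Of 12 stellate cell and fibroblast markers 2 were lower in HFD, while 4 were lower and 1 was higher in HFD+Pc, each against control (summed 115 to 128, 93.9 to 105, and 92.8 to 113 FPKM). Of 13 tested macrophage markers 1 was higher in HFD and 2 were lower in HFD+Pc than in control (summed over 17 markers 442 to 616, 440 to 588 and 319 to 497 FPKM), and Itgam, Ccr2, Trem2 and Gpnmb stayed below 1 FPKM in every library. Of 6 tested B, T and plasma cell markers 2 were higher in HFD than in control and 0 passed in HFD+Pc against control (summed over 11 markers 23.9 to 31.3, 52.8 to 82.03 and 27.7 to 39.6 FPKM). Adipocyte markers were low, with Plin1, Lep and Retn below 1 FPKM in every library, and 1 of 2 tested was higher in each diet group than in control (summed over 6 markers 2.07 to 2.31, 6.59 to 27.01 and 3.57 to 7.28 FPKM). Most of the rise in that sum was Cfd, with group means of 0.0812, 12.3 and 4.50 FPKM. Fabp4 did not rise, at 2.07, 2.08 and 1.36 FPKM. Of 5 red blood cell markers 3 were lower in HFD+Pc than in control (summed 254 to 397, 233 to 359 and 169 to 233 FPKM), and of 4 tested cholangiocyte markers 1 was higher in HFD+Pc than in control (summed over 8 markers 131 to 173, 164 to 189 and 176 to 217 FPKM). Most of the cholangiocyte sum was Krt8 and Krt18. Group means were 59.99, 77.8 and 87.96 FPKM for Krt8 and 66.64, 66.59 and 79.4 FPKM for Krt18. No tested cholangiocyte marker passed in HFD against control. The Spp1 mean was higher in both diet groups, at 16.7, 27.9 and 23.1 FPKM, but both overlapped control. Control libraries were at 13.3 to 20.1 FPKM, HFD replicate 3 at 19.8 and HFD+Pc replicate 3 at 16.5. The Sox9 mean went the other way, at 3.94, 2.92 and 2.41 FPKM. Krt7, Krt19, Epcam and Cftr had means below 1 FPKM in every group, so the sum does not track them. The part of these cell types in the results below was not tested, and in bulk RNA fewer cells of a type cannot be told apart from less RNA per cell.

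All 10 genes passed the filter of at least 1 FPKM in at least 3 libraries, which kept 10988 genes. Ordered by mean FPKM over the 9 libraries, which is a level per exon length, they ran from Lcat at 277 through Lipc at 54.8, Abcg8 at 40.4, Abcg5 at 37.7, Nr1h3 at 31.3, Pltp at 28.4, Scarb1 at 27.3, Abca1 at 22.9 and Nr1h2 at 9.87 to Abcg1 at 1.54. Lcat stood above Lipc, Abca1 above Nr1h2 and Nr1h2 above Abcg1 with no overlap of their 9 libraries. All other neighbours in this order overlapped; Nr1h3 exceeded Pltp in 4 of 9 libraries and Pltp exceeded Scarb1 in 5 of 9. Pltp varied most, with its highest library 3.28 times its lowest, against 1.31 times for Lcat and for Nr1h3. Abcg1 rested on 135 to 233 reads per library, so that counting alone gives a coefficient of variation of 8.61% at its shallowest, and the other 9 genes had at least 416 reads in every library.

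**Figure D1:**
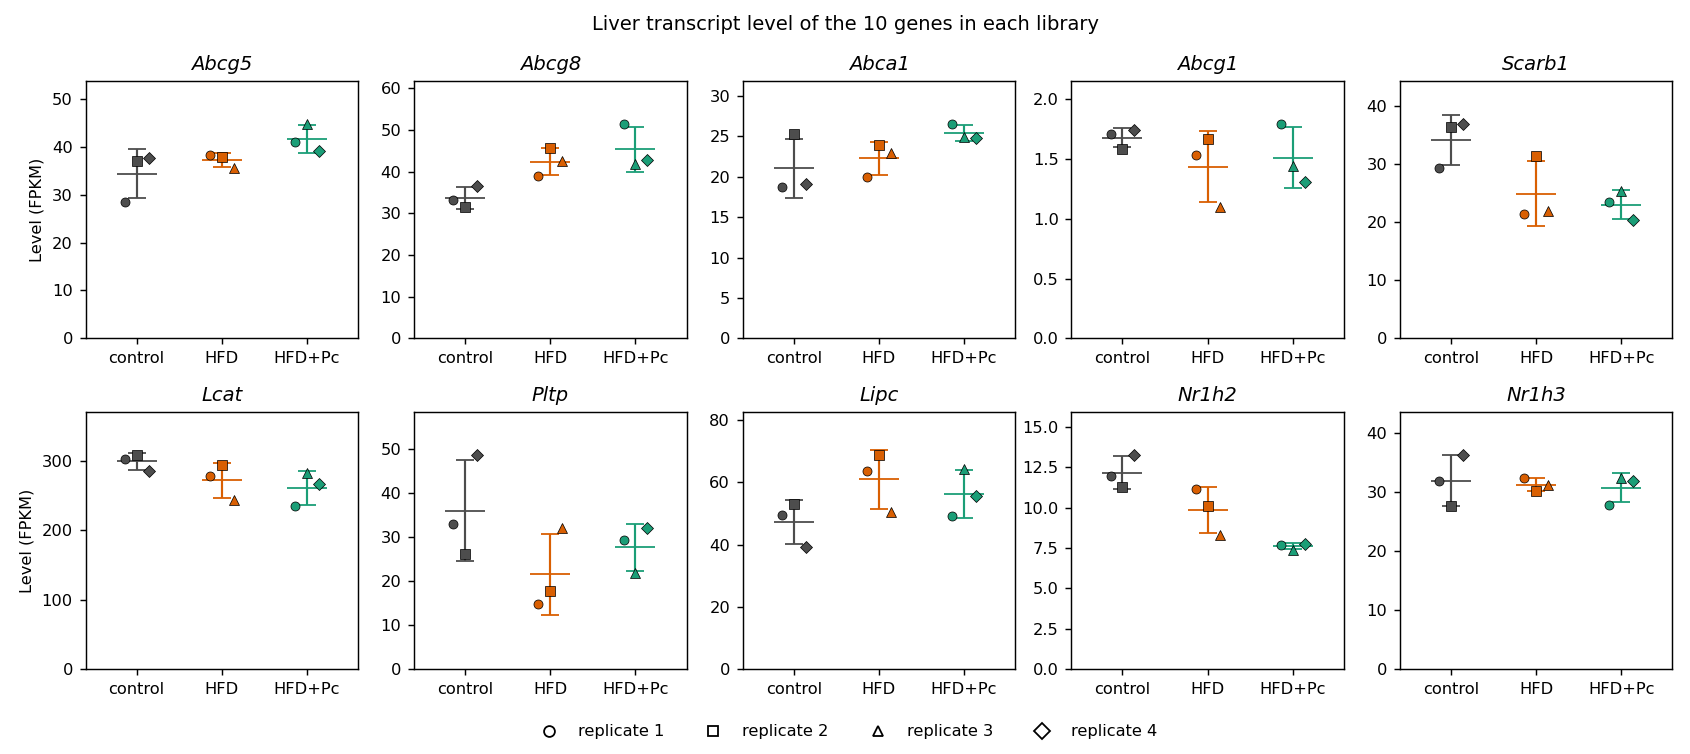
Level of each gene in FPKM (vertical axis, linear and starting at 0) in each library, by group; the long bar is the group mean, the error bar its SD (n = 3), and the marker shape the replicate number. Nr1h2 descends over the 3 groups with no overlap, while Nr1h3 overlaps in all of them.

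In HFD against control, 0 of the 10 genes passed an adjusted p of 0.05 in limma (Benjamini-Hochberg over all genes tested), where 9.97% of all tested genes did. At an unadjusted p of 0.05, 5 of the 10 passed (Abcg8, Scarb1, Pltp, Lipc and Nr1h2), against 27.8% of all tested genes, and 2 had groups that did not overlap (Abcg8 and Nr1h2), against 32.9% of all. With limma-voom on the recovered reads 1 passed, Abcg8, against a background of 13.4%. Voom scaled each library by its recovered reads. The library size that the FPKM imply was 103% to 110% of those reads in HFD libraries. It was 99.1% to 102% in control and 99.5% to 103% in HFD+Pc libraries. Voom thus places HFD levels higher against control than the FPKM do, and the part of this offset in its calls was not tested. In HFD+Pc against HFD, 0 of 10 passed in limma and 0 with voom, where 0.628% and 1.69% of tested genes did; 1 of 10, Nr1h2, passed unadjusted, against 15.6% of all. The groups did not overlap for 3 of 10 (Abcg5, Abca1 and Nr1h2), against 19.8% of all. In HFD+Pc against control, 3 of 10 passed, Abcg8 higher and Scarb1 and Nr1h2 lower, where 23.1% of all tested genes passed, so the count is near that background; voom also called 3, against 24.9%. Unadjusted, 5 of 10 passed, against 38.2% of all, and 5 of 10 had groups without overlap (Abcg5, Abcg8, Scarb1, Lcat and Nr1h2), against 42.8% of all. The median difference of the 10 genes in these comparisons was -0.08, 0.01 and -0.07 on the log2 scale, beside -0.00, 0.01 and 0.01 over all tested genes. The comparisons share libraries and are not independent of one another.

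**Figure D2:**
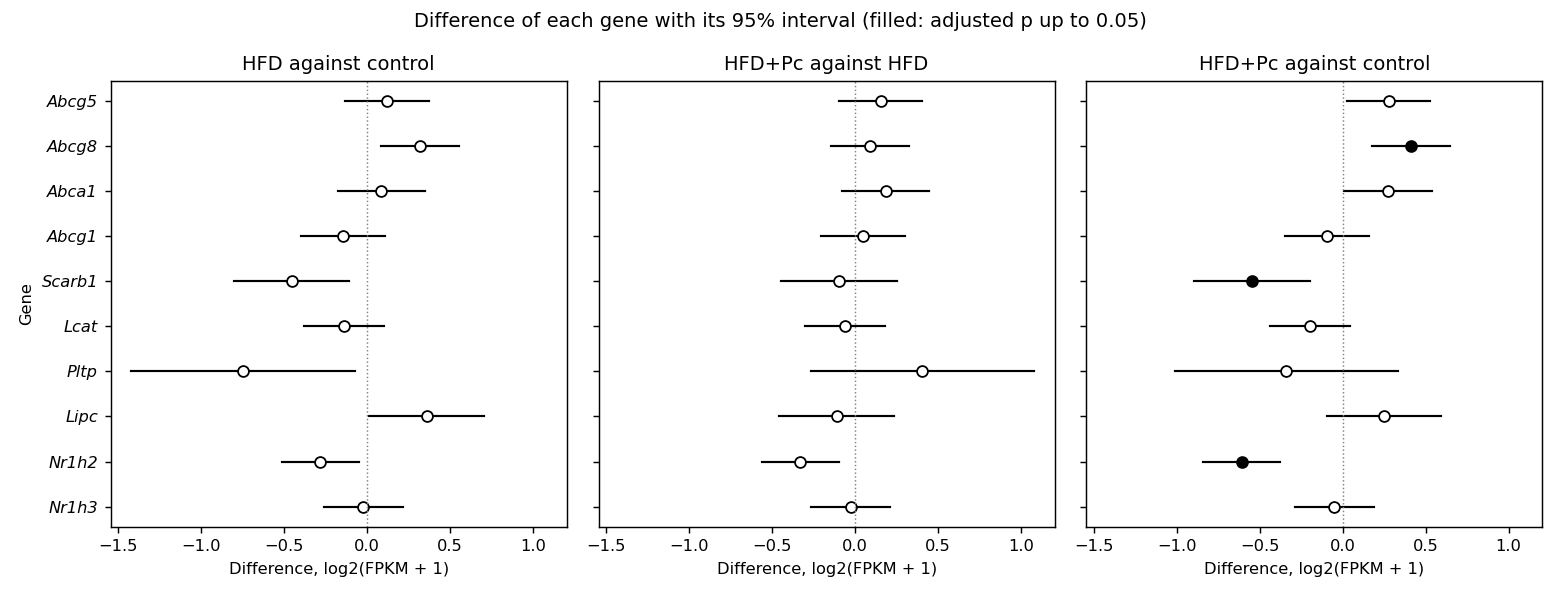
Difference of each gene on the log2(FPKM + 1) scale (horizontal axis) in the 3 comparisons, with its 95% interval from limma; filled points have an adjusted p up to 0.05. Filled points appear in HFD+Pc against control alone: Abcg8 at 0.41, Scarb1 at -0.55 and Nr1h2 at -0.61.

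Of the receptors, Nr1h2 was the gene that moved. Its level was 11.9, 11.25 and 13.3 FPKM in control, 11.15, 10.1 and 8.32 in HFD, and 7.69, 7.40 and 7.73 in HFD+Pc libraries. Every HFD library lay below every control library, and every HFD+Pc library below every HFD library. Nr1h2 fell by 0.61 (SE 0.10) on the log2 scale in HFD+Pc against control, from 12.2 ± 1.03 to 7.61 ± 0.181 FPKM (SD, n = 3), with a limma adjusted p of 0.00497. That call held in all 16 alternative fits, with adjusted p from 0.00245 to 0.0317. Transcripts of Nr1h2 are 60.6% G and C, the highest of the 10 genes and above the median of 49.4% over tested genes; with each library's trend over GC content and length removed, the difference was -0.41 with an adjusted p of 0.020. Neither step between neighbouring groups passed: it was -0.28 (SE 0.10, limma adjusted p = 0.116) in HFD against control and -0.33 (SE 0.10, limma adjusted p = 0.178) in HFD+Pc against HFD. With that trend removed these were -0.12 (0.458) and -0.29 (0.186).

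Nr1h3, the liver's more abundant LXR gene here, did not follow. Its level was 31.9, 27.7 and 36.3 FPKM in control, 32.4, 30.2 and 31.2 in HFD, and 27.9, 32.4 and 31.9 in HFD+Pc libraries. All 3 groups overlapped, with control replicate 2 and HFD+Pc replicate 1 at the low end. The limma difference in HFD+Pc against control was -0.05, with a 95% interval from -0.29 to 0.19 (adjusted p = 0.769), and 0.087 (adjusted p = 0.540) with the GC and length trend removed, which leaves room for a change of modest size in either direction. The ratio of Nr1h3 to Nr1h2 within a library was 2.67, 2.46 and 2.74 in control, 2.91, 2.98 and 3.75 in HFD, and 3.63, 4.38 and 4.13 in HFD+Pc. The control ratios lay below all others, and HFD replicate 3 lay among the HFD+Pc libraries. As group means the ratio was 2.62 ± 0.146, 3.21 ± 0.468 and 4.05 ± 0.384 (SD, n = 3); it was not tested.

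**Figure D3:**
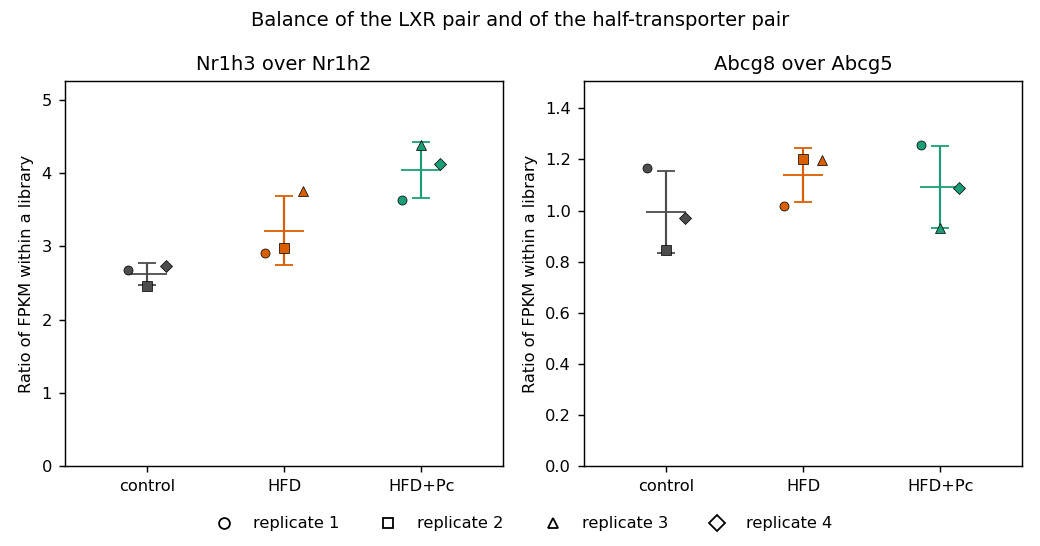
Ratio of FPKM within each library (vertical axes, starting at 0) for Nr1h3 over Nr1h2 and for Abcg8 over Abcg5; bars are group means with SD (n = 3). The receptor ratio is lowest in the control libraries (2.46 to 2.74), while the transporter ratio overlaps between all groups (0.847 to 1.26 over the 9 libraries).

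The 250 bases before the Nr1h2 start, from RefSeq on build GRCm38.p6 (chr7:44553966-44554215, minus strand), are shown because this gene's call was the firmest of the 10. Capitals mark CCGGAAGT, the core site of ETS factors, on either strand.
Nr1h2: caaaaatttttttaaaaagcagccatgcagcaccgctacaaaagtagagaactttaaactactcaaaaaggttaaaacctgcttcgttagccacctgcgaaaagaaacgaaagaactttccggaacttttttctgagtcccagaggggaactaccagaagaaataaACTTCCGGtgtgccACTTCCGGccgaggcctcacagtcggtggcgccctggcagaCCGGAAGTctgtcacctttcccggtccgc
Of the 5 matches in the 300-base window around this start (250 bases before to 50 after), 3 lie in the stretch shown. The others lie after the start and overlap each other on opposite strands, so that 1 palindromic site is counted on each strand. At least 1 match is present in 3.89% of 32851 such RefSeq windows, and 4 or more in 0.00304%, which is 1 window, that of Nr1h2 itself. A match of letters is a description and not a measured binding site.

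The list of LXR partners and cofactors also held other nuclear receptors of liver, among them Hnf4a, Nr1h4 and Nr5a2. The list gave 0 calls of 18 in either direction in HFD against control and 0 in HFD+Pc against HFD. In HFD+Pc against control 6 were lower and 1 was higher (limma, adjusted p up to 0.05 over all genes). Of all tested genes 11.9% were called lower and 11.1% higher there, and 0.446% and 0.182% in HFD+Pc against HFD. With voom the counts were 2, 1 and 6. Rxra, the main RXR of liver, was at 78.3, 68.4 and 73.3 FPKM in control, 56.6, 63.3 and 59.9 in HFD, and 53.5, 54.8 and 49.7 in HFD+Pc libraries, so that the 3 groups did not overlap. It fell by 0.47 (SE 0.09, limma adjusted p = 0.00620) in HFD+Pc against control. Rxrb, another RXR gene, fell by 0.48 (SE 0.09, limma adjusted p = 0.00585) in the same comparison. Hnf4a, a regulator of hepatocyte identity, fell by 0.48 (limma adjusted p = 0.0135), Gps2, a corepressor subunit, by 0.39 (0.0115), and Nr1h4, the bile acid receptor FXR, by 0.47 (0.0224). Nr5a2, the receptor LRH-1, rose by 0.36 (limma adjusted p = 0.0438). Several of these genes are rich in G and C, and removing the trend over GC content and length brought Rxrb to -0.26, still past the threshold, and ended the calls of Gps2 (-0.21) and Nr5a2 (0.23). Calls for Rxra, Rxrb, Hnf4a and Gps2 held when any 1 library was left out. Nr1h4 lost its call without control replicate 1 or 2 or HFD+Pc replicate 3 or 4 (adjusted p up to 0.0760), and Nr5a2 without any 1 library other than control replicate 2 (up to 0.145).

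Abcg5 and Abcg8 lie head to head on chromosome 17. The 109 bases between the RefSeq start of Abcg5 and 1 RefSeq start of Abcg8 are shown (GRCm38.p6, chr17:84683012-84683120, plus strand). From these starts both genes are read outward. RefSeq has another Abcg8 start, at 84676302, which lies on the Abcg5 side of this stretch. Abcg5 starts at the left edge on the minus strand and Abcg8 at the right edge on the plus strand. Capitals mark AGATAA, the GATA factor core, here read on the opposite strand.
Abcg5-Abcg8: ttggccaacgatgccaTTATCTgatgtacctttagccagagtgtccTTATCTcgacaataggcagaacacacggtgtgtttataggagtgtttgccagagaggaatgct
The promoter windows around the starts at its edges share 209 bases and the same 3 GATA matches, 2 of them in the stretch shown. The window of the other Abcg8 start holds 0 GATA matches. At least 1 match is present in 11.2% of all windows, and 3 or more in 0.107%, a share that counts these windows too.

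Abcg8 was at 33.2, 31.4 and 36.5 FPKM in control, 39.03, 45.5 and 42.5 in HFD, and 51.4, 41.8 and 42.7 in HFD+Pc libraries. All 6 libraries from mice on the diet lay above all 3 controls, and the 2 diet groups overlapped. Abcg8 rose by 0.41 (SE 0.10) on the log2 scale in HFD+Pc against control, a ratio of means of 1.34 (limma adjusted p = 0.0214). The call was lost without control replicate 1 (0.40, adjusted p = 0.0611), control replicate 2 (0.36, 0.0758) or HFD+Pc replicate 1 (0.32, 0.0527). The difference in HFD against control was 0.32 (SE 0.10, limma adjusted p = 0.0818), and with voom on recovered reads 0.41 with an adjusted p of 0.0235. Voom scales the HFD libraries otherwise, as given above. HFD+Pc against HFD gave 0.09, with a 95% interval from -0.14 to 0.33 (limma adjusted p = 0.726).

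Abcg5, whose product is the other subunit of the transporter, was at 28.5, 37.1 and 37.6 FPKM in control, 38.3, 37.8 and 35.5 in HFD, and 40.9, 44.8 and 39.2 in HFD+Pc libraries. The 3 HFD+Pc libraries were the highest of the 9, and control replicate 1 stood below the rest. The limma difference was 0.12 (adjusted p = 0.516) in HFD against control, 0.16 (0.548) in HFD+Pc against HFD and 0.28 (SE 0.11, 0.0984) in HFD+Pc against control; none passed. The ratio of Abcg8 to Abcg5 within a library was 0.994 ± 0.160 in control, 1.14 ± 0.105 in HFD and 1.09 ± 0.161 in HFD+Pc (SD, n = 3), with overlap between all groups. Their annotated exons share 82 bases on opposite strands in GENCODE M21, and whether the counting used strand is not given in the sources used here.

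Abca1, which starts HDL formation, was at 18.8, 25.2 and 19.1 FPKM in control, 19.97, 23.9 and 23.0 in HFD, and 26.5, 24.9 and 24.8 in HFD+Pc libraries. The HFD+Pc libraries lay above all HFD libraries but overlapped the controls, since control replicate 2 lay among them. The difference was 0.09 (SE 0.12, limma adjusted p = 0.669) in HFD against control, 0.19 (0.489) in HFD+Pc against HFD and 0.27 (0.119) in HFD+Pc against control. Without control replicate 2 the last of these was 0.40 with an adjusted p of 0.0308.

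An LXR element, a direct repeat of AGGTCA spaced by 4 bases (DR4), has been described near the Abca1 start, so the 250 bases before it are shown (RefSeq, GRCm38.p6, chr4:53159896-53160145, minus strand). Capitals mark both repeats of the closest match, allowing up to 3 mismatches over the 2 copies, on either strand.
Abca1: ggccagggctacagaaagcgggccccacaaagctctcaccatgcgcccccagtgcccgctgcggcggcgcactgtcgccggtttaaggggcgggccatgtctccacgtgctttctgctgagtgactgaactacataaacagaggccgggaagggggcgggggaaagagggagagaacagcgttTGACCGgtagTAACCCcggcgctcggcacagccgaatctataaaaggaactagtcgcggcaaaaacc
The match begins 67 bases before the start and has 3 mismatches, and 21.9% of all windows hold at least 1 match as loose as this. The same rule found matches in windows of Lcat (1) and Lipc (2) and none in those of Abcg5, Abcg8, Pltp, Nr1h2 and Nr1h3, which says only that these letters are not in these windows.

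Abcg1, which passes cholesterol on to HDL that already carries lipid and is best known from macrophages, was the lowest of the 10 at 1.71, 1.59 and 1.74 FPKM in control, 1.54, 1.67 and 1.10 in HFD, and 1.79, 1.44 and 1.31 in HFD+Pc libraries. All groups overlapped, and HFD replicate 3 was the lowest. The limma difference was -0.14 (adjusted p = 0.436) in HFD against control, 0.05 (0.874) in HFD+Pc against HFD and -0.10 (0.563) in HFD+Pc against control, each with an SE of 0.11. With the GC and length trend removed the differences from control were -0.076 (0.715) in HFD and -0.012 (0.951) in HFD+Pc. On the log2(FPKM + 1) scale, changes of a gene this low are understated.

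Scarb1, the HDL receptor, was at 29.2, 36.3 and 36.9 FPKM in control, 21.3, 31.4 and 21.9 in HFD, and 23.4, 25.3 and 20.4 in HFD+Pc libraries. The 3 HFD+Pc libraries lay below all controls, while HFD replicate 2 lay among the controls. Scarb1 fell by 0.55 (SE 0.16) on the log2 scale in HFD+Pc against control, a ratio of means of 0.674 (limma adjusted p = 0.0326). The call was lost without HFD+Pc replicate 1 (adjusted p = 0.0663), 3 (0.0544) or 4 (0.0981) and without control replicate 2 (0.0984) or 4 (0.0958), with differences from -0.62 to -0.46. Against control, HFD gave -0.45 (SE 0.16, limma adjusted p = 0.0952), and without HFD replicate 2 it was -0.63 and passed (0.0332). HFD+Pc against HFD gave -0.09, with a 95% interval from -0.44 to 0.26 (limma adjusted p = 0.819). Some endothelial and stellate markers were lower in the same groups, as given above, and the part of these cells in the Scarb1 difference was not tested. Pdzk1, which encodes the adaptor that holds SR-BI at the hepatocyte surface, fell by 0.64 in HFD+Pc against control (limma adjusted p = 0.0411), a call lost without any 1 control library, any 1 HFD+Pc library or HFD replicate 1 (adjusted p up to 0.118).

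Lcat, the cholesterol esterifying enzyme, was at 303, 308 and 285 FPKM in control, 278, 293 and 244 in HFD, and 235, 283 and 266 in HFD+Pc libraries. Each HFD+Pc library lay below each control library, though narrowly. The difference was -0.20 (SE 0.11, limma adjusted p = 0.210) in HFD+Pc against control, -0.14 (0.427) in HFD against control and -0.06 (0.842) in HFD+Pc against HFD. Lcat transcripts are 55.5% G and C, and with the GC and length trend removed the differences from control were -0.022 (0.888) in HFD+Pc and -0.030 (0.866) in HFD.

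Pltp, the phospholipid transfer protein and a known LXR target, was at 33.1, 26.3 and 48.7 FPKM in control, 14.9, 17.7 and 32.0 in HFD, and 29.4, 21.8 and 32.0 in HFD+Pc libraries. HFD replicates 1 and 2 were the lowest of the 9, and HFD replicate 3 lay among the controls. The difference was -0.75 (SE 0.30, limma adjusted p = 0.143) in HFD against control, the largest of the 10 genes in that comparison and the least precise, and -1.06 (0.0505) without HFD replicate 3. It was 0.41 (0.564) in HFD+Pc against HFD and -0.34 (0.436) in HFD+Pc against control, or -0.20 (0.678) with the GC and length trend removed. Of the annotated exon bases of Pltp, 495 (19.3%) overlap Ctsa on the opposite strand, so that without strand the reads there cannot be told apart. Ctsa, a lysosomal protease gene, was at 30.2 ± 1.70, 27.2 ± 3.76 and 25.7 ± 1.73 FPKM (SD, n = 3) in control, HFD and HFD+Pc and passed in no comparison (lowest limma adjusted p = 0.144).

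Lipc, hepatic lipase, was at 49.3, 53.1 and 39.3 FPKM in control, 63.5, 68.8 and 50.4 in HFD, and 49.02, 64.3 and 55.4 in HFD+Pc libraries. HFD replicates 1 and 2 and HFD+Pc replicates 3 and 4 lay above all controls, and the lowest library of each diet group lay among them. The difference was 0.36 (SE 0.15, limma adjusted p = 0.165) in HFD against control, -0.11 (0.782) in HFD+Pc against HFD and 0.25 (0.264) in HFD+Pc against control.

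Other LXR target genes gave 2 higher and 5 lower of 20 tested in HFD against control, and again 2 higher and 5 lower in HFD+Pc against control, with 0 called in HFD+Pc against HFD by limma or voom. The background shares were 4.61% higher and 5.35% lower in HFD against control and 11.1% and 11.9% in HFD+Pc against control, and the median difference of the 20 was -0.08 and -0.20. Cd36, a fatty acid uptake receptor that other nuclear receptors also control, went from 22.5, 19.3 and 18.3 FPKM in control to 96.3, 62.03 and 75.7 in HFD and 84.1, 72.04 and 72.3 in HFD+Pc libraries. It rose by 1.89 (limma adjusted p = 0.00250) in HFD and by 1.88 (0.000954) in HFD+Pc against control. Hpgd, a prostaglandin dehydrogenase gene, rose by 0.62 (limma adjusted p = 0.0103) and 0.96 (0.00141). Npc2, which carries cholesterol out of lysosomes, fell by 0.43 (limma adjusted p = 0.0257) and 0.60 (0.00378). Mylip, the LXR-induced ligase IDOL that degrades the LDL receptor, fell by 0.58 (limma adjusted p = 0.0274) and 0.47 (0.0311). Apoc1 fell by 0.75 (limma adjusted p = 0.0213) in HFD+Pc against control. Scd1, a fatty acid desaturase gene, fell by 3.26 (limma adjusted p = 0.0443) in HFD against control. It was at 4569 to 6869 FPKM in control libraries, 226 and 241 in HFD replicates 1 and 2, and 3173 in HFD replicate 3. The Scd1 call held in 3 of 16 alternative fits. In HFD+Pc against control Scd1 was at -1.25 and did not pass (limma adjusted p = 0.312). Srebf1, the LXR target that drives fatty acid synthesis, was at 29.5 ± 5.02, 38.1 ± 7.11 and 34.2 ± 9.44 FPKM (SD, n = 3) in control, HFD and HFD+Pc and did not pass (limma adjusted p = 0.336 and 0.591 against control). Lpcat3, a phospholipid remodelling enzyme gene, was at 39.6 ± 5.84, 32.1 ± 5.31 and 32.2 ± 4.27 FPKM and did not pass (0.230 and 0.188). Calls for Cd36 and Hpgd in both comparisons, and for Npc2 in HFD+Pc against control, held when any 1 library was left out. In HFD against control, Npc2 lost its call without control replicate 1 or 4 or HFD replicate 1 or 3 (adjusted p up to 0.0737), and Mylip without control replicate 2 or 4 or HFD replicate 1 or 3 (up to 0.0790). In HFD+Pc against control, Mylip lost it without control replicate 2 or 4 or HFD+Pc replicate 3 or 4 (up to 0.106), and Apoc1 without control replicate 1 or 2 (up to 0.0631).

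HDL proteins and lipoprotein remodelling genes gave 0 higher and 7 lower of 28 tested in HFD against control (all tested genes: 4.61% and 5.35%) and 1 higher and 9 lower in HFD+Pc against control (11.1% and 11.9%), with 0 called in HFD+Pc against HFD by limma or voom. Their median difference was -0.23 and -0.17 against control. Apom, which carries sphingosine-1-phosphate on HDL, was at 186, 183 and 199 FPKM in control, 89.5, 120.2 and 100.3 in HFD, and 94.9, 103 and 119 in HFD+Pc libraries. No diet library reached a control library, and Apom fell by 0.88 (limma adjusted p = 0.00676) in HFD and by 0.84 (0.00344) in HFD+Pc against control. Apoa5, an activator of triglyceride hydrolysis, fell by 0.80 in both comparisons (limma adjusted p = 0.00773 and 0.00342). Apoa1, the main HDL protein and the acceptor of lipid from ABCA1, was at 5070, 4340 and 4815 FPKM in control, 2242, 3602 and 2672 in HFD, and 2706, 2627 and 3736 in HFD+Pc libraries. It fell by 0.77 (SE 0.20, limma adjusted p = 0.0402) in HFD and by 0.66 (SE 0.20, 0.0373) in HFD+Pc against control, with no overlap with the controls. With the GC and length trend removed neither Apoa1 call passed (-0.63, 0.0675, and -0.46, 0.109). Pon1, an HDL-bound esterase gene, rose by 0.57 (limma adjusted p = 0.0100) in HFD+Pc against control; with the GC and length trend removed it was 0.33 and did not pass (0.0813). Apoe, an apolipoprotein of HDL and remnants, was at 6452 ± 557, 5116 ± 663 and 5767 ± 753 FPKM (SD, n = 3) in control, HFD and HFD+Pc and did not pass against control (limma adjusted p = 0.179 and 0.449, and 0.379 and 0.874 with that trend removed, where the difference in HFD+Pc turned from -0.17 to 0.033). The Apom and Apoa5 calls held when any 1 library was left out, and so did that of Pon1. The Apoa1 call in HFD was lost without any 1 control library, HFD replicate 1 or 3 or HFD+Pc replicate 3 (adjusted p up to 0.113), and that in HFD+Pc without any 1 control library or HFD+Pc replicate 1 or 3 (up to 0.128).

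Genes of intracellular sterol handling gave 2 higher and 3 lower of 19 tested in HFD and 3 higher and 5 lower in HFD+Pc, each against control, and 0 in HFD+Pc against HFD by limma or voom. Beside these stand 4.61% higher and 5.35% lower of all tested genes in HFD and 11.1% and 11.9% in HFD+Pc. The lists share genes, so these counts are not separate from those of the lists above. Stard4, a soluble sterol carrier gene, rose by 0.77 (limma adjusted p = 0.0370) in HFD, or 0.67 and not past the threshold (0.0602) with the GC and length trend removed, and by 1.18 (0.00426) in HFD+Pc. Scp2, a peroxisomal sterol carrier and thiolase gene, rose by 0.41 (limma adjusted p = 0.0180) in HFD+Pc. Cav1, which encodes the caveolar protein caveolin-1, rose by 1.36 (limma adjusted p = 0.0138) in HFD, from 1.11 ± 0.240 to 4.52 ± 1.47 FPKM (SD, n = 3). Caveolae are plentiful in endothelial cells and adipocytes. As given above, 5 of 13 endothelial markers were lower in HFD, and 1 of 2 tested adipocyte markers, Cfd, was higher. The part of these cells in the Cav1 difference was not tested. Tspo, a mitochondrial cholesterol-binding protein gene, fell by 0.40 (limma adjusted p = 0.0154) in HFD and 0.43 (0.00533) in HFD+Pc; with the GC and length trend removed it was -0.24 (0.105) and -0.18 (0.155). The HFD call of Stard4 was lost without any 1 control or HFD library (adjusted p up to 0.111), that of Cav1 without control replicate 1 (0.0522) and that of Tspo without control replicate 2 (0.0524). The HFD+Pc call of Scp2 was lost without control replicate 2 or 4 or HFD+Pc replicate 3 (up to 0.0726).

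Biliary lipid and bile acid genes gave 1 higher and 1 lower of 13 tested in HFD and 5 higher and 2 lower in HFD+Pc against control. None passed in HFD+Pc against HFD by limma or voom. Over all tested genes 4.61% were higher and 5.35% lower in HFD, and 11.1% and 11.9% in HFD+Pc. Abcb11, the bile salt export pump, was at 92.9, 76.3 and 104.9 FPKM in control, 121, 141 and 138 in HFD, and 124, 160.2 and 135 in HFD+Pc libraries. All diet libraries lay above the controls, and Abcb11 rose by 0.55 (limma adjusted p = 0.0379) and 0.61 (0.0137). With the GC and length trend removed the first of these missed the threshold (0.50, 0.0531). Abcb4, the phospholipid floppase of the same canalicular membrane, was at 40.6 ± 3.09, 50.5 ± 0.572 and 46.5 ± 4.07 FPKM (SD, n = 3) and did not pass against control (limma adjusted p = 0.0584 and 0.154), while with that trend removed its difference in HFD was 0.34 and passed (0.0380). Cyp8b1, which sets the cholic acid share of bile acids, fell by 0.41 (limma adjusted p = 0.0438) and 0.34 (0.0459), and each of these calls was lost without any 1 library other than control replicate 4 (adjusted p up to 0.142 and 0.151). Stard10, a phospholipid carrier gene, fell by 0.34 (limma adjusted p = 0.0278) in HFD+Pc, lost without any 1 control or HFD+Pc library (up to 0.0900); with the GC and length trend removed Stard10 was at -0.19 (0.125) and Cyp8b1 at -0.21 (0.227) in HFD+Pc against control, and Cyp8b1 at -0.32 (0.126) in HFD. The Abcb11 call in HFD was lost without control replicate 1 or 2, any 1 HFD library or HFD+Pc replicate 4 (up to 0.116), and that in HFD+Pc without HFD+Pc replicate 3 (0.0532). The biliary count in HFD+Pc fell to 0 without HFD+Pc replicate 3 and was 3 with the GC and length trend removed.

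Of genes that make or remove oxysterols, the LXR ligands, 7 were tested, 0 were called higher in any comparison, and 1 was lower in each diet group than in control (5.35% and 11.9% of all tested genes were). Cyp39a1, an oxysterol hydroxylase gene, fell by 1.15 (limma adjusted p = 0.0320) in HFD against control, from 11.9, 10.3 and 24.8 FPKM to 6.80, 5.76 and 5.51; control replicate 4 was far above the others. Hsd11b1, which also reduces 7-ketocholesterol, fell by 0.46 (limma adjusted p = 0.0350) in HFD+Pc against control. The Cyp39a1 call was lost without control replicate 1 or any 1 HFD library (adjusted p up to 0.0859), and that of Hsd11b1 without any 1 control library or HFD+Pc replicate 3 or 4 (up to 0.104). Cyp27a1, which makes 27-hydroxycholesterol, was at 200 ± 25.1, 226 ± 32.8 and 233 ± 22.7 FPKM (SD, n = 3) and did not pass (limma adjusted p = 0.440 and 0.263 against control).

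Of 14 other sterol and lipid ABC transporter genes tested, 2 were higher in HFD and 4 in HFD+Pc than in control, 0 were lower, and 0 passed in HFD+Pc against HFD by limma or voom. Among all tested genes 4.61% were higher in HFD and 11.1% in HFD+Pc. Abca8b, an ABCA-family gene, rose by 0.50 (limma adjusted p = 0.00759) in HFD+Pc, a call that held when any 1 library was left out. Abcg2, an exporter of urate and drugs, rose by 0.64 (limma adjusted p = 0.0376) in HFD and 0.51 (0.0469) in HFD+Pc; with the GC and length trend removed these were 0.49 and 0.29 and did not pass (0.0689 and 0.184). With 1 library left out the calls of Abcg2 were lost in HFD (any control library, HFD replicate 2 or 3 or HFD+Pc replicate 4, adjusted p up to 0.102) and in HFD+Pc (any library other than HFD replicates 1 and 3, up to 0.149).

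Genes of SREBP-2, the factor that turns on cholesterol synthesis when sterols are scarce, gave 2 higher of 16 in HFD and 8 higher in HFD+Pc against control (4.61% and 11.1% of all tested genes), 0 lower, and 0 in HFD+Pc against HFD by limma or voom. Hmgcs1, a synthesis enzyme gene, rose by 1.75 (limma adjusted p = 0.0168) and 2.19 (0.00356), and the first of these was lost without control replicate 2 (0.0639).

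**Figure D4:**
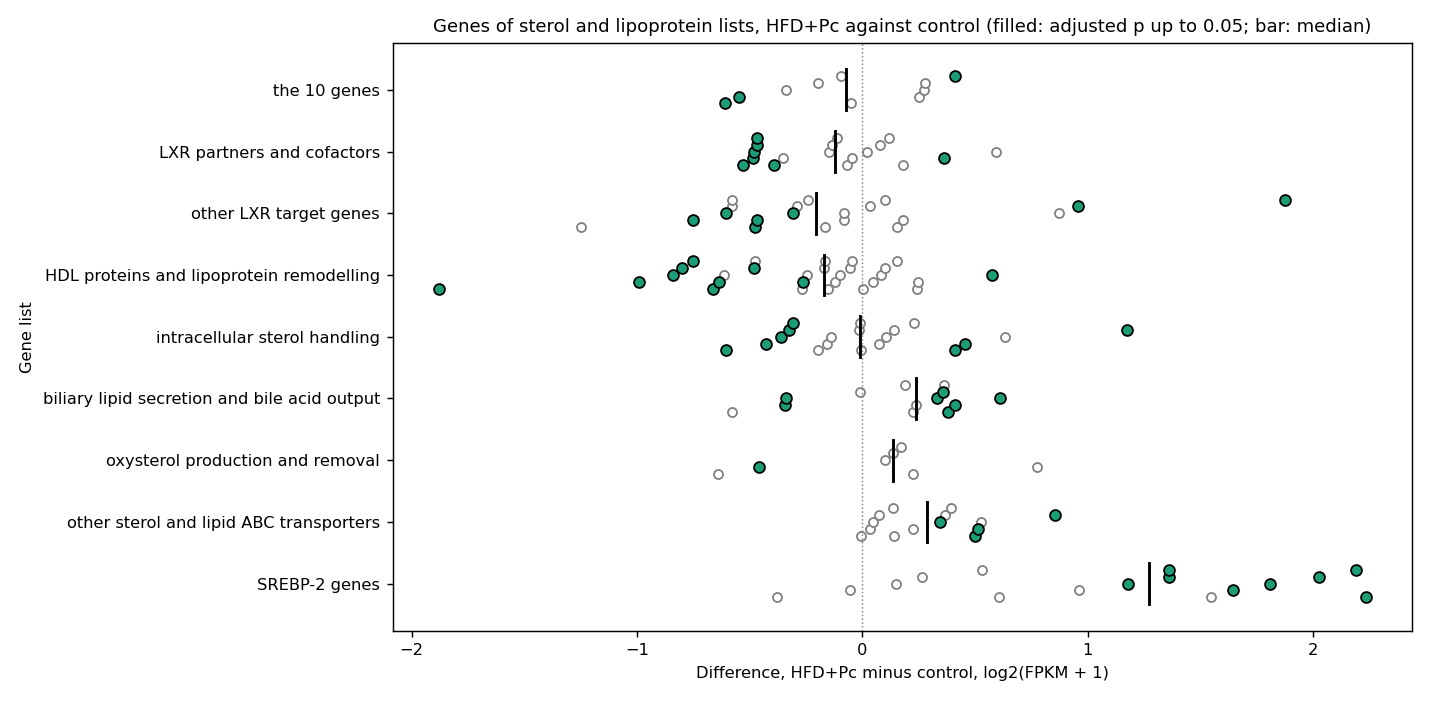
Difference of each tested gene in HFD+Pc against control on the log2(FPKM + 1) scale (horizontal axis), by gene list (vertical axis); filled points have a limma adjusted p up to 0.05 and the bar is the list median. The LXR partners and the HDL proteins hold mostly lower filled points (6 of 7 and 9 of 10), and the filled SREBP-2 points are all higher (8 of 8). The list of LXR partners also held other nuclear receptors, among them Hnf4a and Nr1h4.

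The gene whose log2(FPKM + 1) values over the 9 libraries were most like each of the 10 was found among the 10987 other tested genes. The points share their groups and libraries, and these values of Pearson's r are a description. They were 0.986 for Abcg5 with Zfp825, 0.976 for Abcg8 with Ate1, 0.935 for Abca1 with Farp1, 0.942 for Abcg1 with Slc7a7 and 0.974 for Scarb1 with Jade2. For the plasma enzymes they were 0.974 for Lcat with Dcaf15, 0.932 for Pltp with 1810044K17Rik and 0.940 for Lipc with Epb41l4b, and for the receptors 0.922 for Nr1h3 with Ppp1r11 and 0.979 for Nr1h2 with ENSMUSG00000095742. That last gene, given in the table by its identifier, was at 3.63 to 5.69 FPKM in control, 1.47 to 2.47 in HFD and 0.471 to 0.731 in HFD+Pc libraries. Of the other members, the one most like Abcg8 was Abcg5, with r of 0.550 and rank 2139 of the 10987 genes, and the one most like Abcg5 was Abca1, with r of 0.634.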

How the data were processed

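Liver RNA of 9 libraries was extracted with Trizol and sequenced by Illumina protocols, per the labels. The submitters' processing notes name HISAT2 2.0.5 and the build GRCm39; the counter, the strand setting and the library size behind the values are not given in the sources used here. The authors deposited 1 table of FPKM for 54007 Ensembl genes, of which 52093 matched a symbol. FPKM share a library's total, so a few very abundant genes can move all others. Tests were run with limma 3.58.1 in R 4.3.3 (trend and robust empirical Bayes) on log2(FPKM + 1) over all 9 libraries, for genes reaching 1 FPKM in 3 or more libraries, with Benjamini-Hochberg adjustment over all genes tested and a threshold of 0.05. Fold changes of low genes are understated on this scale. The fit was tested on simulated data. Dividing FPKM by what 1 read is worth at the GENCODE M21 exon length gave whole reads (within 0.02) for 96.5% of 26278 genes above 0, and voom on those reads was an alternative, beside another pseudocount (0.1), no filter, another scaling, 2 groups at a time, a replicate block, each library left out and, added after seeing the data, removal of the trend over GC content and length. The 10 genes and all lists were chosen with earlier results of these data known. Some genes stand in more than 1 list, so the same call can count in several lists. Named by rule are all 10 genes and up to 2 genes called in each direction per list and comparison (lowest adjusted p first). Fixed partners were Srebf1, Mylip, Lpcat3, Rxra, Apoa1, Apoe, Abcb4 and Cyp27a1. Hnf4a, Gps2, Nr1h4, Pdzk1, Ctsa and Scd1 were named after their values were seen. Some genes that this rule names are not reported here. RefSeq promoter windows matched 8 of the 10 genes.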

Additional observations from a re-analysis of the deposited data

How the results depend on the processing

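Against 10 genes in 3 comparisons, the count called in HFD against control moved from 0 to 1 with voom (Abcg8), and ranged from 0 to 1 when 1 library was left out (Scarb1, without HFD replicate 2). In HFD+Pc against control it moved from 3 to 1 with no filter, and ranged from 1 to 3 when 1 library was left out (1 without HFD+Pc replicate 1); in HFD+Pc against HFD it was 0 in every fit run. Over all genes, the 1095 calls in HFD against control became 209 with no filter, 680 with 2 groups at a time and 332 to 1126 with 1 library left out. The 69 calls in HFD+Pc against HFD became 3, 22, 179 with voom, 136 with the GC and length trend removed, and 5 to 123 with 1 library left out (5 without HFD replicate 2, 7 without HFD+Pc replicate 3). The 2538 in HFD+Pc against control became 1383 with no filter and 1396 to 2644 with 1 library left out. With no filter Abcg8 (0.41, adjusted p = 0.0648) and Scarb1 (-0.55, 0.103) missed the threshold in HFD+Pc against control. The cause was not tested.

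The labels do not say whether replicate numbers pair the libraries. Deviations from the group means correlated at -0.12 to 0.05 for same-numbered libraries and at -0.11 to 0.14 for differently numbered ones. With 3 libraries per group these values cannot decide whether equal numbers share a batch. With the replicate block the calls over all genes were 232, 3 and 1058 in the order above, and 1 of the 10 genes, Nr1h2, was called in HFD+Pc against control; Abcg8 was at 0.43 (adjusted p = 0.0920) and Scarb1 at -0.46 (0.104). It also ended the calls of Abca8b and Gps2 in HFD+Pc and of Hpgd in HFD against control, which had held with any 1 library left out.

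Signs turned in 20 of 480 fits of single members, all for differences that did not pass. With the block, Nr1h3 turned to 0.010 in HFD against control, and Scarb1 to 0.00473 and Lipc to 0.015 in HFD+Pc against HFD. Nr1h3 turned to 0.057 in HFD against control with voom, which scales the HFD libraries otherwise. With the GC and length trend removed Nr1h3 was at 0.086, 0.000416 and 0.087 in the 3 comparisons and Lcat at 0.00871 in HFD+Pc against HFD. With 1 library left out, HFD against control ranged from -0.0051 (without control replicate 1) to 0.19 for Abcg5 and from -0.12 to 0.071 for Nr1h3 (above 0 without control replicate 4 or HFD replicate 2). HFD+Pc against HFD ranged from -0.0019 to 0.14 for Abcg8, -0.055 to 0.12 for Abcg1, -0.19 to 0.079 for Scarb1, -0.13 to 0.018 for Lcat and -0.064 to 0.041 for Nr1h3; the turned signs came without HFD+Pc replicate 1 (Abcg8, Abcg1, Lcat and Nr1h3), HFD replicate 2 (Scarb1 and Lcat) or HFD replicate 3 (Abcg1). HFD+Pc against control ranged from -0.15 to 0.045 for Nr1h3, above 0 without control replicate 4 or HFD+Pc replicate 1.

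In HFD against control, with no filter the HDL list gave 2 of 7, the other LXR targets 2 of 7, intracellular sterol handling 1 of 5 and SREBP-2, biliary, oxysterol and ABC lists 0. In HFD+Pc against control, with no filter the HDL list gave 6 of 10, other LXR targets 3 of 7, intracellular sterol handling 4 of 8, SREBP-2 3 of 8, biliary 2 of 7, ABC transporters 2 of 4 and the LXR partners 5 of 7. With 1 library left out the HFD+Pc against control counts ranged from 5 to 7 for LXR partners, 4 to 8 for other LXR targets, 6 to 11 for HDL, 3 to 8 for intracellular sterol handling, 3 to 11 for SREBP-2, 0 to 7 for biliary, 0 to 2 for oxysterol and 1 to 5 for ABC transporter genes. In HFD against control they ranged from 2 to 6 for other LXR targets, 2 to 7 for HDL, 1 to 5 for intracellular sterol handling, 0 to 6 for SREBP-2 and 0 to 2 for biliary and ABC transporter genes. With the replicate block the HFD+Pc against control counts were 4 of LXR partners, 3 of other LXR targets, 6 of HDL, 5 of intracellular sterol handling, 4 of SREBP-2, 0 of biliary and 1 of ABC transporter genes, and those in HFD against control were 1 of other LXR targets, 2 of HDL, 1 of intracellular sterol handling and 0 of biliary and ABC transporter genes. Voom gave 4 SREBP-2 genes in HFD+Pc against control, and 4 biliary and 5 ABC transporter genes in HFD against control. The scaling offset of voom in HFD libraries, given above, applies to these counts. With 2 groups at a time, HFD against control gave 4 other LXR targets and 0 biliary, oxysterol and ABC transporter genes. With the GC and length trend removed, ABC transporter calls were 0 and 2 in HFD and HFD+Pc against control. Depth limits only Abcg1 among the 10.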
